A study of Homo sapiens with 14 samples.

Results

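The 43 genes described here encode WNT ligands (19), frizzled receptors (10), secreted antagonists of the SFRP and DKK families (4 each) and the TCF/LEF transcription factors (4), together with AXIN2 and LGR5. They were taken by symbol, all 43 were found in the GENCODE release 44 annotation of hg38, and they stand among 19970 protein-coding genes on the 22 autosomes and X. CUT&RUN, in which an antibody-tethered nuclease releases the DNA around its target, had been applied to untreated TC-32 cells labelled WT, an established line from Ewing sarcoma, the bone and soft tissue tumour driven by the EWSR1::FLI1 fusion. FLI1 was mapped in 2 libraries of set A and 2 of set B, H3K27ac in 2 libraries of set A, H3K9me3 and H3K27me3 in 2 libraries each of set B, and IgG in 2 libraries of each set. The labels do not say what separates the sets, whether replicates are separate cultures, or whether the FLI1 antibody tells the fusion from FLI1 itself. All values come from 1 line with no arm that lacks the fusion, and no expression was measured.

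WNT proteins are secreted ligands that bind frizzled receptors at the cell surface. In the canonical branch, ligand binding stabilises beta-catenin, which enters the nucleus and acts with TCF/LEF factors; SFRP proteins bind the ligands, and DKK proteins block the LRP co-receptors. H3K27ac marks active promoters and enhancers, H3K27me3 is the mark laid down by Polycomb at silenced developmental genes, and H3K9me3 marks heterochromatin. EWSR1::FLI1 is known to bind runs of GGAA repeats as well as single ETS motifs. A peak in a deposited list is called a region here; its fold compares the signal with that of the IgG library, as the authors' caller gave it.

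By family, most ligands and SFRP genes carried H3K27me3 at the start and most frizzled receptors carried FLI1 there, while other starts met neither rule. Within 1 kb of the start, H3K27me3 regions were present in both replicates at 18 of 43 genes (41.9%), against 9.47% of all protein-coding genes. They marked 12 of 19 ligands, 3 of 4 SFRP genes, 1 of 4 DKK genes, 1 of 4 TCF/LEF genes and 1 of 10 frizzled receptors. FLI1 was present in all 4 libraries at 8 of 43 starts (18.6%), against 33.8% of all genes, and 6 of those 8 were frizzled receptors.

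No start held FLI1 in all 4 libraries together with H3K27me3 in both replicates, a combination found at 0.13% of all genes. FLI1 in any library met H3K27me3 at 1 start, that of WNT6 (all genes: 1.03%), where the FLI1 region only reaches the edge of the 1 kb window. FLI1 was in no library at 24 of 43 starts, against 45.9% of all genes. H3K27ac in both replicates was at 0 of 43 starts (all genes: 11.3%), as was H3K9me3 (all genes: 1.39%), and FLI1 in all 4 libraries with H3K27ac in both replicates was likewise at 0 (all genes: 8.07%). At 7 starts none of the 10 lists had a region, against 32.7% of all genes: WNT3, WNT8A, WNT8B, WNT9B, WNT16, SFRP4 and DKK4. A missing region means that none was detected, since the lists give no read totals; that of H3K27ac replicate 1 is the shortest of the 10.

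**Figure D1:**
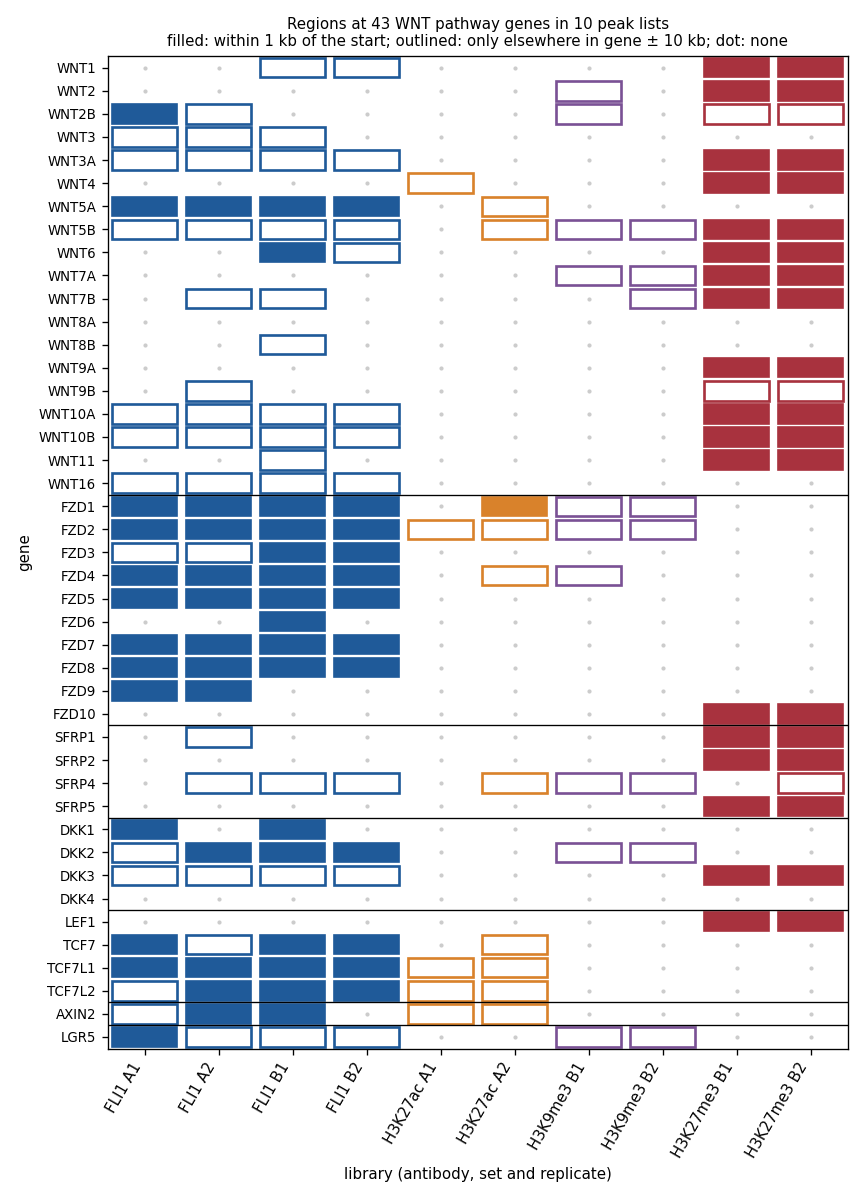
Each row is 1 of the 43 genes and each column 1 of the 10 peak lists (A and B are the sets, 1 and 2 the replicates); a filled box is a region within 1 kb of the start, an outlined box a region only elsewhere in the gene or 10 kb either side, and a dot none. The filled H3K27me3 boxes lie mainly among the ligands and SFRP genes and the filled FLI1 boxes mainly among the frizzled receptors.

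**Figure D2:**
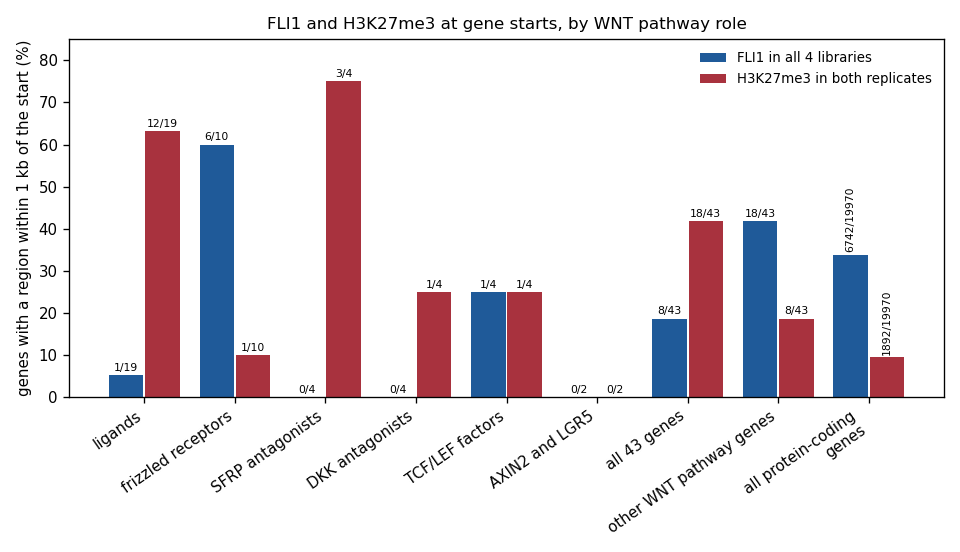
Bars give the percent of genes with FLI1 in all 4 libraries (blue) or H3K27me3 in both replicates (red) within 1 kb of the start, by role, with the counts above them and all 19970 protein-coding genes at the right. Ligands stand at 12 of 19 for H3K27me3 and 1 of 19 for FLI1, frizzled receptors at 1 of 10 and 6 of 10.

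Among the ligands, H3K27me3 covered the starts of WNT1, WNT2, WNT3A, WNT4, WNT5B, WNT6, WNT7A, WNT7B, WNT9A, WNT10A, WNT10B and WNT11. For WNT5B this is the start of the gene record. Its MANE Select start lies 99340 bp into the record and had no H3K27me3 call. WNT1, the canonical ligand first known from mouse mammary tumours (ENSG00000125084, chr12:48978322-48982620, plus strand), had regions of 8.10 kb and 7.02 kb across its start in replicates 1 and 2, with folds of 8.48 and 7.54. These stood at percentiles 99.7 and 99.4 of fold within their lists. WNT9A (chr1:227918656-227947932, minus strand) had the widest regions at a ligand start, 12.3 and 11.9 kb, with folds of 5.34 and 6.03. WNT3A, a canonical ligand widely used to activate the pathway, followed with 12.3 and 9.89 kb and folds of 7.62 and 7.71.

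By the share of the gene with 10 kb either side that lay in H3K27me3 of both replicates, WNT1 came first at 43.8%, then WNT6 at 39.1% and WNT9A at 36.9%. The next were SFRP5 at 29.5%, WNT7B at 28.8%, WNT3A and WNT10B at 27.2% each, WNT10A at 20.9%, WNT11 at 17.8% and SFRP1 at 17.5%. Of these 10, 8 encode ligands and the other two encode SFRP antagonists. WNT1 and WNT10B lie 6.59 kb apart from start to start and WNT6 and WNT10A 21.0 kb, so each pair shares regions and does not count as separate observations. The starts of WNT3 and WNT9B, neither of them marked, lie 0.047 kb apart and are likewise not separate. The share also depends on gene length: LEF1, with 10.5 kb in both replicates, reached a lower share than WNT1 with 10.7 kb. At the 18 marked starts the median share was 17.6%, against 7.06% at the 1892 marked starts of all genes. The median width of the region at the start was 5.71 kb in replicate 1 and 5.26 kb in replicate 2, against 3.44 and 2.80 kb over all marked genes. Their median percentile of fold, averaged over both lists, was 95.7, against 82.8 for all marked genes. Weaker members were WNT5B (percentiles 48.2 and 23.8) and WNT10A (62.1 and 30.9).

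**Figure D3:**
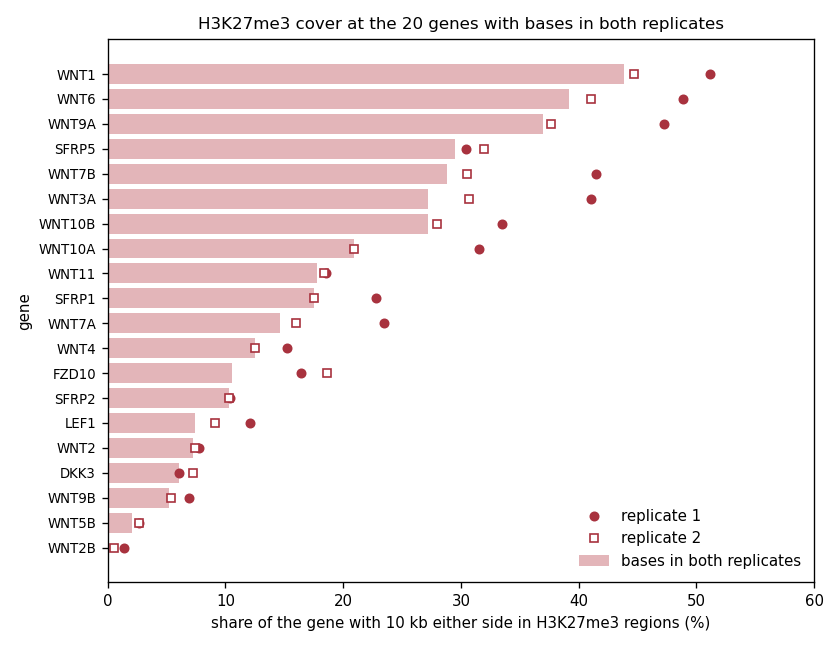
Bars show the percent of each gene with 10 kb either side that lies in H3K27me3 regions of both replicates, and points the percent in each replicate, for the 20 genes above 0. WNT1, WNT6 and WNT9A lie highest at 43.8%, 39.1% and 36.9%, and WNT2B and WNT5B lowest.

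WNT5A, which signals mainly through non-canonical branches, was the 1 ligand with FLI1 at its start in all 4 libraries and had H3K27me3 in neither replicate. The strongest region within 1 kb of its start (ENSG00000114251, chr3:55465715-55490539, minus strand) had folds of 9.31 and 8.77 in the set A libraries, against 9.59 and 9.96 in those of set B. The MANE Select start of WNT5A lies 3233 bp into the record, at chr3:55487306. A wider region at chr3:55480379-55487918, which covers that start, was stronger, with folds of 14.7, 20.3, 14.6 and 17.1 in set A replicates 1 and 2 and set B replicates 1 and 2, the order used for 4 values from here on. It held 2 H3K27ac regions of replicate 2 and 0 of replicate 1. Within 1 kb of its start, WNT6 had FLI1 in set B replicate 1 alone, with a fold of 10.4. That region only reaches the edge of the window. The merged region (chr2:218860803-218861380) has its summit 1.35 kb from the start. Set B replicate 2 had FLI1 in it too, with a fold of 6.57, but not within 1 kb of the start. The WNT2B start held FLI1 in set A replicate 1 alone, with 5.83.

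The gene-record starts of the remaining unmarked ligands were poor in CpG. Within 500 bp either side of the start, the 18 starts with H3K27me3 had a median GC content of 70.1% and a median of 90 CpG dinucleotides (lowest 47, highest 150), against 59.2% and 58 for all genes. The 8 starts with FLI1 in all 4 libraries had 71.2% and 101 (lowest 8, at WNT5A). The 7 starts with no region in any list had 49.4% and 10, with 5 to 18 CpG, below each start with H3K27me3 and each with FLI1 in all 4 libraries other than WNT5A. The 6521 genes with no region in any list had 50.7% and 16, also below the medians over all genes. WNT2B, an unmarked ligand outside the 7, had 48.7% and 33. Composition was measured at gene-record starts only. For 4 of the 7 the MANE Select start lies elsewhere, 14462 bp away at WNT3, 18382 bp at WNT9B, 3633 bp at WNT16 and 108878 bp at SFRP4. WNT3 and WNT9B share most of the sequence measured. The MANE Select start of WNT2B lies 42424 bp away. At the MANE Select starts of WNT2B and WNT9B, H3K27me3 was present in both replicates. At WNT2B the call was weak: the replicate 2 region was 0.467 kb wide, with a fold of 3.66 at percentile 0.25 of its list. The 120 bases before 2 starts far apart in CpG are shown, with CG in capitals. WNT9A had 150 CpG within 500 bp, the most of the 18 starts with H3K27me3, and WNT8B, with no region, had 6. Neither is typical of its class. Both stretches were read from hg38 on the gene's strand, at chr1:227947933-227948052 (minus) and chr10:100462889-100463008 (plus), and hold 23 and 2 CG.
WNT9A: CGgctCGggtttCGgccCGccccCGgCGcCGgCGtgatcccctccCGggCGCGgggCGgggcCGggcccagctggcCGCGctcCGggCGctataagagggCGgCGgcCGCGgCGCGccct
WNT8B: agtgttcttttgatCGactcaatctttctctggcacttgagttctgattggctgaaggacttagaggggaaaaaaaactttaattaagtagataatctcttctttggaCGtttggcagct

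The frizzled receptors with FLI1 at the start in all 4 libraries were FZD1, FZD2, FZD4, FZD5, FZD7 and FZD8, cell-surface receptors of the WNT ligands. FZD8 (ENSG00000177283, chr10:35638247-35642296, minus strand) had folds of 12.2, 15.1, 13.8 and 12.6 in the region chr10:35641699-35643950 across its start. That was the highest mean percentile of fold among these 8 starts, 81.3 ± 3.9 (SD, n = 4). FZD7 had folds of 6.92, 7.06, 20.4 and 18.0, so both set B values lay above both set A values. FZD4, a receptor for norrin as well as WNT, had 8.04, 7.24, 13.8 and 19.3, with the same order.

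FZD1 had folds of 8.63, 13.1, 8.62 and 8.36 and FZD5 had 10.7, 9.92, 8.49 and 7.92. FZD2 had 13.9, 10.4, 13.4 and 6.48, where set B replicate 2 was the low value. Over the 8 genes the median mean percentile was 67.0, against 74.7 for the 6742 genes with FLI1 at the start in all 4 libraries, and of the 8 only FZD8 lay above that value.

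**Figure D4:**
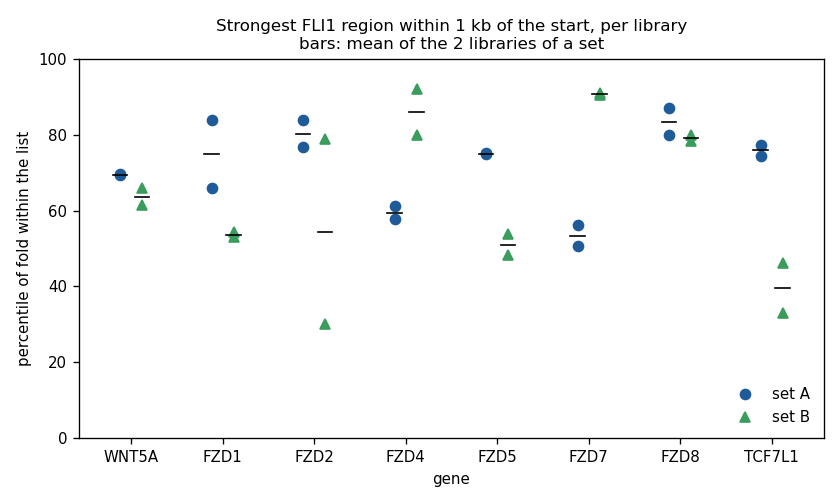
For the 8 genes with FLI1 at the start in all 4 libraries, points give the percentile of fold of the strongest region within its list (0 to 100) in set A (circles) and set B (triangles), with bars at the mean of each set. FZD4 and FZD7 lie higher in set B, WNT5A, FZD1, FZD5 and TCF7L1 higher in set A, and FZD2 and FZD8 overlap.

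A percentile depends on the other regions of its list. By this measure, set B lay above set A without overlap at FZD4 and FZD7, 2 of the 8 genes. The share was 30.7% of all genes with FLI1 in all 4 libraries. Set A lay above set B in percentile at WNT5A, FZD1, FZD5 and TCF7L1, 4 of the 8, against 22.7%. At WNT5A the folds ran the other way, 9.31 and 8.77 in set A against 9.59 and 9.96 in set B. At FZD1, FZD5 and TCF7L1 folds and percentiles had the same order. With 2 libraries against 2, an exact permutation test cannot give a p below 0.333. FZD9 had FLI1 at its start in set A only (folds of 10.3 and 3.96), a pattern at 1.09% of all genes, and FZD3 in set B only (7.91 and 7.05), a pattern at 5.55%. FZD6 had it in set B replicate 1 alone, with a fold of 4.43. FZD10 was the 1 receptor with H3K27me3 at the start, with folds of 5.23 and 5.24, and no FLI1 region in its window in any library.

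H3K27ac within 1 kb of a start was found at FZD1 in replicate 2 alone, in a region of fold 4.53. At FZD2 both replicates had an H3K27ac region 2.42 and 2.53 kb upstream of the start, with folds of 4.74 and 3.86. The −log10 q values were 3.20 and 2.01, the second close to the lowest in the lists. There FLI1 was present in all 4 libraries at chr17:44554916-44555619, with folds of 6.58, 5.25, 11.7 and 9.85. FZD1 and FZD2 also had H3K9me3 in both replicates within 10 kb: upstream of FZD1 with folds of 5.14 and 4.95, and downstream of FZD2 with folds of 4.44 and 4.58.

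Among the antagonists, 3 of 4 SFRP genes and 1 of 4 DKK genes had H3K27me3 at the start. SFRP1, SFRP2 and SFRP5, secreted proteins that bind WNT ligands, had it in both replicates, with folds of 7.25 and 6.29, of 5.98 and 5.28, and of 6.44 and 6.46. SFRP4 had none there; its gene record opens 108878 bp before the start of its MANE Select transcript and overlaps EPDR1. No SFRP start had FLI1 in any library. DKK3, a divergent family member, had H3K27me3 at its start with folds of 8.67 and 6.81, and DKK4 had no region of any list within 10 kb.

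DKK1, the best known LRP antagonist of the family, had FLI1 at its start in replicate 1 of each set and in neither replicate 2. The folds were 8.21 in set A and 8.35 in set B, in separate regions that do not overlap. DKK2 had FLI1 at the start of its gene record in 3 libraries, set A replicate 2 (8.31) and both of set B (6.41 and 8.10). Its strongest FLI1 region lay elsewhere, at chr4:107163865-107167767 in an intron 117 kb into the gene record, with folds of 26.2, 32.8, 11.9 and 7.08. The MANE Select start of DKK2 lies 247 kb into the record, so this region is upstream of that transcript. Set A was above set B in both libraries there, and no H3K27ac region overlapped it.

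Among the nuclear factors, TCF7L1, which often acts as a repressor of WNT targets, had FLI1 at its start in all 4 libraries (folds of 10.5, 10.6, 6.67 and 7.72; chr2:85132728-85133529). TCF7 had FLI1 there in 3 libraries (4.54 in set A replicate 1, then 15.5 and 5.87 in set B) and TCF7L2 in 3 (5.54 in set A replicate 2, then 19.3 and 8.39). LEF1 was the 1 factor with H3K27me3: a region of 8.47 kb in replicate 1 and 9.99 kb in replicate 2 across its start, with folds of 6.11 and 6.74.

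LEF1 and TCF7L2 differed in every kind of region found over them. Over LEF1 with 10 kb either side (gene record chr4:108047545-108168956, minus strand) H3K27me3 had 9 and 6 regions, and FLI1, H3K27ac and H3K9me3 had 0 in each library. Over TCF7L2 (chr10:112950247-113167678, plus strand) FLI1 had 8, 15, 14 and 10 regions, H3K27ac had 7 and 9, and H3K27me3 and H3K9me3 had 0 in each library. Within TCF7L2 introns, 2 FLI1 regions in all 4 libraries overlapped H3K27ac of both replicates: chr10:113047405-113048663, with folds of 7.81, 6.46, 7.93 and 7.04, and chr10:113060043-113060962, with 7.57, 6.69, 7.46 and 13.1. They lie 97.7 and 110.5 kb from the start. FLI1 and H3K27ac of set A share their IgG controls, and H3K27ac was mapped in set A only. Whether the overlap depends on those controls was not tested.

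**Figure D5:**
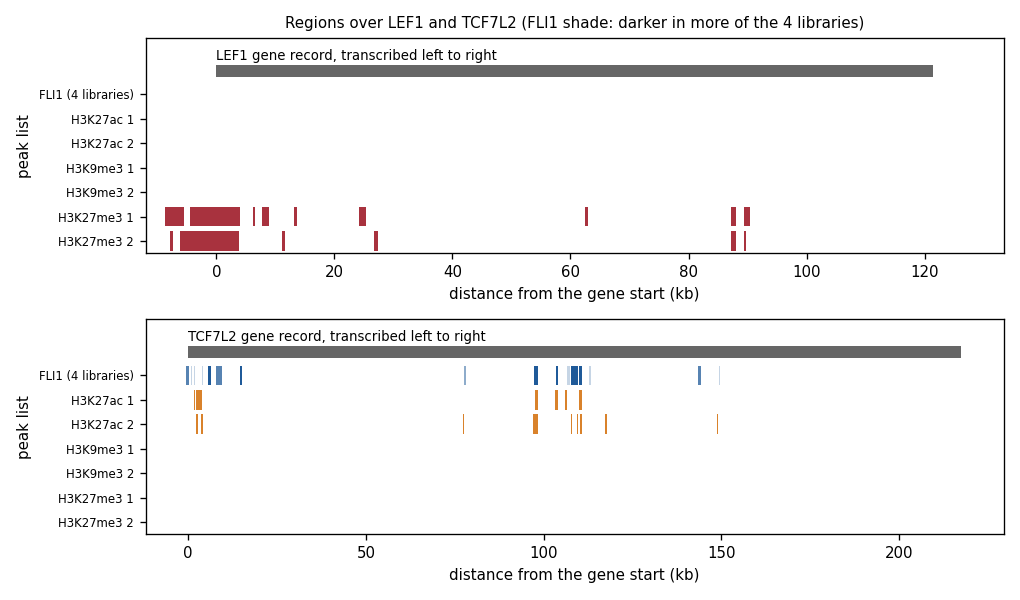
Boxes mark regions of each list by distance from the gene start in kb over LEF1 (top) and TCF7L2 (bottom), drawn in the direction of transcription; the FLI1 row shows merged regions, darker when found in more of the 4 libraries. LEF1 carries H3K27me3 alone, with 9 and 6 regions, and TCF7L2 carries FLI1 and H3K27ac alone.

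AXIN2, a feedback inhibitor and common target gene of the canonical pathway, had FLI1 at its start in set A replicate 2 and set B replicate 1 only, with folds of 6.67 and 11.7. An H3K27ac region 22.7 kb into the gene, in an intron that an overlapping gene also covers, was found in both replicates with folds of 4.43 and 4.16. The −log10 q values were low, 2.55 and 2.35. LGR5, a receptor for R-spondins and a stem cell marker in gut, had FLI1 at its start in set A replicate 1 alone (5.37). It held 3 intronic FLI1 regions in all 4 libraries, the strongest at chr12:71558050-71558996 by mean percentile of fold. Its percentiles were 42.7, 74.99, 1.08 and 85.3, with set B replicate 1 near the bottom of its list and set B replicate 2 the highest of the 4. H3K9me3 lay 3.88 and 3.63 kb upstream of LGR5 in the replicates, with folds of 6.58 and 6.23, inside the neighbouring gene TSPAN8.

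Over the whole gene with 10 kb either side, FLI1 in all 4 libraries was present at 19 of 43 genes, against 56.3% of all genes, and H3K27me3 in both replicates at 20, against 17.6%. The genes added for H3K27me3 were WNT2B and WNT9B, and neither kept the call among peaks with −log10 q of at least 5. H3K27ac was present in both replicates at FZD2, TCF7L1, TCF7L2 and AXIN2, 4 of 43, against 28.3%. FZD2 and AXIN2 lost the call among peaks with −log10 q of at least 5. Without H3K27ac replicate 1 the number was 10. H3K9me3 was present in both replicates at 7 (WNT5B, WNT7A, FZD1, FZD2, SFRP4, DKK2 and LGR5), against 25.3%. The strongest H3K9me3 region of a ligand lay at the far end of WNT7A, with folds of 7.21 and 6.23, while the WNT7A start carried H3K27me3. WNT3A, WNT5B, WNT10A, WNT10B and DKK3 held both FLI1 in all 4 libraries and H3K27me3 in both replicates. They were 5 of 43, against 5.88% of all genes. Among genes with H3K27me3 in both replicates they were 5 of 20, against 1174 of 3508 over all genes. In none of the 5 did the 2 meet within 1 kb of the start. WNT8A and DKK4 had no region of any list there, 2 of 43, against 10.3% of all genes.

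The 4 FLI1 lists gave 103 merged regions over these windows: 32 in all 4 libraries, 17 in 3, 18 in 2 and 36 in 1. None of the 32 lay in H3K27me3 of both replicates (0.198% of the 16163 such regions genome-wide) and 3 overlapped H3K27ac of both replicates (9.38%, against 12.4% genome-wide). Their median mean percentile of fold was 59.7, against 67.6. The 5 with the highest mean percentile included the regions in WNT5A and at the FZD8 start given above. The first of the 5 lay downstream of WNT10A at chr2:218909048-218909636, 28.4 kb from its start and over the record of the non-coding gene LINC01494, with folds of 16.9, 14.3, 32.3 and 20.9. The region of next rank lay downstream of WNT10B at chr12:48956451-48958206, with folds of 15.1, 15.2, 39.0 and 18.1, and sits at the start of ARF3, so it belongs to that gene's promoter as much as to the WNT10B flank. The remaining one lay in the last exon of WNT3A at chr1:228059767-228060383, with folds of 16.1, 12.6, 14.2 and 9.95, 53.0 kb from the start. H3K27me3 of replicate 1 overlapped it (chr1:228057572-228059947, fold 3.88), and a region of replicate 2 ended short of it (chr1:228056656-228059028, fold 4.64).

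Motifs were searched on both strands within 250 bp of each summit. A run of at least 4 GGAA units was found at 1 of the 32 regions in all 4 libraries (3.12%), against 6.54% of all 16163. The ETS core CCGGAAG was found at 4 (12.5%, against 18.1%) and the TCF/LEF core CTTTGAT at 1, downstream of FZD8 (3.12%, against 5.41%). The region with the GGAA run was the DKK2 intron region above. Its run has 13 units (chr4:107166243-107166294), 12 of them inside the search window. A second run, of 11 units (chr17:44548944-44548987), lay upstream of FZD2, between a FLI1 region of 3 libraries (set A replicate 2 and both of set B, folds of 5.08, 6.18 and 6.04) that reaches into it, 8.72 kb from the start, and one of both set A libraries (4.54 and 4.81). Without set A replicate 1, this region counts as in every library and the number of regions with a run becomes 2. Both runs are shown from hg38 with 30 bases either side on the strand that reads GGAA, at chr4:107166213-107166324 (plus) and chr17:44548914-44549017 (minus), with repeats of 2 or more units in capitals.
DKK2 intron: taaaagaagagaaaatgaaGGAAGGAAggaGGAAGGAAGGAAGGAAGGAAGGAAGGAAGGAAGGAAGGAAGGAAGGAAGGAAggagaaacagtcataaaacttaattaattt
FZD2 upstream: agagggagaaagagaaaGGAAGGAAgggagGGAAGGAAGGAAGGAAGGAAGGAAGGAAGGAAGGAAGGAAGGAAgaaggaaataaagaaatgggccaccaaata

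The 2 runs are alike in length, but the folds beside them differed, by an amount that varied with the library. At DKK2 the set A libraries gave 26.2 and 32.8, while at FZD2 neither of them passed 5.08. The gap was narrower for set B. Replicate 1 had 11.9 at DKK2 against 6.18 at FZD2, and replicate 2 had 7.08 against 6.04. The regions in all 4 libraries with the ETS core lay downstream of WNT10A, in an FZD1 exon, downstream of FZD8 and in a DKK3 intron. The 3 outside exons are shown with 30 bases either side of the core nearest the summit, in capitals, at chr2:218909083-218909149 (plus), chr10:35630683-35630749 (plus) and chr11:11979384-11979450 (minus); the letters around the core differ between them.
WNT10A downstream: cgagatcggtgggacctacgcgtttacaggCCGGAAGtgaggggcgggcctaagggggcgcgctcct
FZD8 downstream: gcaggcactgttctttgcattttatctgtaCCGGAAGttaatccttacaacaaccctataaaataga
DKK3 intron: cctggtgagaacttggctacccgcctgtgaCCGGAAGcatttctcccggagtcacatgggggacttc

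The number of the 43 starts with FLI1 was 13 and 12 in the set A libraries and 16 and 12 in the set B libraries. The difference of set means, A less B, was -1.5 (exact permutation test, two-sided, p = 1, n = 2 per set), and it turned to 0.5 without set B replicate 1. The same libraries had FLI1 at 40.7%, 40.4%, 49.7% and 46.3% of all gene starts. Over the whole gene with 10 kb either side the numbers were 24, 27, 29 and 22, a difference of 0 (exact permutation p = 1, n = 2 per set), where all genes stood at 64.8%, 65.2%, 70.9% and 67%. H3K27me3 was at 18 starts in each replicate, the same 18 in both (all genes: 11.5% and 9.8%), and over 20 and 21 genes with flanks (all genes: 21.4% and 18%). H3K27ac was at 0 and 1 starts (all genes: 14.7% and 19.6%) and over 5 and 10 genes with flanks (all genes: 32% and 41.6%). H3K9me3 was at 0 starts in each replicate (all genes: 2.6% and 1.53%) and over 10 and 8 genes with flanks (all genes: 34.2% and 26.1%).

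Over genes with 10 kb either side, FLI1 was found at WNT2B and FZD9 in set A only, in each of its libraries, 2 of 43, against 1.94% of all genes. At FZD9 the libraries shared 1 region, but at WNT2B they did not: that of replicate 1 was at the start, and that of replicate 2 lay 61.4 kb away, inside ST7L. At WNT1 and WNT6 it was found in set B only, again in each library, also 2 of 43, against 4.14%. At WNT1 that region lay 12.6 kb from the start, beyond the H3K27me3 regions, with folds of 8.40 and 7.10. FLI1 was in no library over 10 of 43 genes, against 23.5%: WNT2, WNT4, WNT7A, WNT8A, WNT9A, FZD10, SFRP2, SFRP5, DKK4 and LEF1. Of these 10, WNT8A and DKK4 lacked H3K27me3 at the start and the rest carried it in both replicates. The matching share among all genes without FLI1 was not counted, and a link between the 2 was not tested. FLI1 in any library shared a window with H3K27me3 in both replicates at 12 of 43 genes, against 10.3% of all genes. H3K27me3 itself was over more of the 43 genes. Among genes with H3K27me3 in both replicates, FLI1 in any library was at 12 of 20, against 2065 of 3508 over all genes.

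Another 43 genes of the pathway, outside the families above, were counted in the same way. FLI1 was at the start in all 4 libraries of 18 of them (41.9%, against 33.8% of all genes), H3K27me3 in both replicates at 8 (18.6%, against 9.47%) and H3K27ac in both replicates at 5 (11.6%, against 11.3%). The difference from the 43 genes above was not tested. The 8 with H3K27me3 were RSPO1, RSPO2, RSPO3 and RSPO4, which encode the secreted R-spondins that boost WNT signalling, their receptor gene LGR6, the antagonists WIF1 and NOTUM, and the corepressor TLE1. Those with FLI1 included 6 of 9 signal transduction genes (AXIN1, APC, GSK3A, GSK3B, DVL2 and CSNK1A1, parts or regulators of the beta-catenin destruction machinery) and 5 of 8 nuclear cofactors. TLE1 held both FLI1 and H3K27me3.

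The peak lists held 29339 to 40590 FLI1 regions, 10219 and 17366 of H3K27ac, 36687 and 21770 of H3K9me3 and 21461 and 16667 of H3K27me3. At loci that the fusion is known to bind in Ewing sarcoma, FLI1 regions were found in all 4 libraries: 6, 7, 6 and 5 at NR0B1, 9, 10, 7 and 5 at NKX2-2, 9, 16, 10 and 6 at CCND1, and 1, 1, 1 and 2 at STEAP1. H3K27ac had 0 regions in both replicates at NR0B1, NKX2-2 and CCND1, and 1 in each at STEAP1, so a count of 0 for this mark was also found at loci with FLI1 in every library. H3K27me3 had 1 region in each replicate at NKX2-2 and 0 at the other three, and H3K9me3 had 1 region in replicate 1 at NR0B1 and at STEAP1.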

How the data were processed

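FLI1, 3 histone marks and IgG had been profiled by CUT&RUN in TC-32 cells (14 libraries). Per the submitters' processing notes, cutadapt 4.4, Bowtie2, Picard 2.17.11 and MACS2 2.1.1 were used with GRCh38/hg38. Per the file headers and names, the authors made 1 peak list per library with IgG as control, and replicates were not pooled. The deposited fold is the ratio of signal to IgG, the deposited significance is −log10 p and −log10 q (lowest q value in the lists 2.00 on that scale), and the deposited score was not used. The IgG libraries enter as controls only, and reads, read totals and spike-in counts were not analysed here, so depth is unknown and no interval could be given.

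Peaks of 1 list that overlap were merged and took the values of the most significant. A FLI1 call needs a region in all 4 libraries and a mark call one in both replicates, sharing at least 1 bp with the window: 1 kb either side of the gene-record start in GENCODE release 44, or the gene with 10 kb either side. Shares of all 19970 protein-coding genes are given as background. Percentiles of fold are ranks within a list. For 11 genes the MANE Select start lies over 500 bp from the gene-record start. Set A and set B were compared with an exact permutation test over libraries. Members and gene lists were chosen with earlier results of these data known. Genes named are those with FLI1, H3K27ac or H3K9me3 calls, the 10 with most H3K27me3, and the 5 strongest FLI1 regions; others appear in family counts or were named after their values were seen. The counting was checked on simulated regions. Alternatives varied windows, thresholds, the libraries required, and each library in turn; MANE Select starts and crossed replicate numbers were chosen after seeing the data. Software: Python 3.11.15, numpy 2.4.6, pandas 2.3.3, pysam 0.24.0 and matplotlib 3.10.9.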

Additional observations from a re-analysis of the deposited data

How the results depend on the processing

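Of 135 alternatives for 13 results, 111 were scored as unchanged, 23 as moved further and 1 as turned in direction. A count was unchanged within 1.5 times its value, or if a count of 0 stayed at 0. Set differences were scored by sign alone, whatever their size. The one over genes with flanks was 0, so it could not turn. The median share of the 43 genes in H3K27me3 was also 0, with 23 genes at 0, and could not fall. The 18 starts with H3K27me3 stayed 18 without either replicate, and became 12 among peaks with −log10 q of at least 5, losing WNT4, WNT5B, WNT10A, WNT10B, FZD10 and SFRP2. At MANE Select starts, added after the data were seen, 19 genes had H3K27me3 (gaining WNT2B and WNT9B, losing WNT5B) and 8 had FLI1.

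FLI1 in any library, in place of all 4, was at 19 starts and over 33 genes with flanks, and it met H3K27me3 over 12 genes. Leaving out 1 FLI1 library gave 8 to 10 starts. H3K27ac was at 2 starts within 5 kb, at 1 with either replicate, and at 0 to 1 without a replicate; H3K9me3 was at 1 within 5 kb. Over the genes with flanks, H3K27ac was at 11 with 50 kb either side, 2 among peaks with −log10 q of at least 5, 2 among the more significant 50% of each list, 11 with either replicate, and 5 to 10 without a replicate (10 without replicate 1). H3K9me3 was at 21, 2, 3 and 11 under those first 4 settings, and at 8 to 10 without a replicate. FLI1 and H3K27me3 met over 3 genes in the gene body alone and over 12 with 50 kb either side. Regions with a GGAA run numbered 2 with 50 kb either side, 0 among the more significant 50%, 2 in at least 3 libraries, 3 in any library, and 1 to 2 without a library. The cause of these moves beyond the looser or stricter rule itself was not tested.

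The set difference at starts ranged from -3.5 to 0.5 without a library, turning to 0.5 without set B replicate 1, and over genes with flanks from -3.5 to 3.5. The replicate numbers are not stated to pair the samples: with number as a replicate block the differences were -1.5 and 0 (exact permutation p = 1 for each, n = 2 pairs, smallest possible 0.5). Replicate 1 less replicate 2 correlated between the sets at r = -0.342 over 19970 genes, which are not independent, and crossing the numbers also gave -1.5 and 0 with p = 1 in the exact permutation test. Depth is unknown, so weak regions missing from a list cannot be told from absent ones.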
